A study of Mus musculus with 5 samples.

Results

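The subject is Cx3cr1 and 8 further receptors for chemoattractants in the mouse macrophage line RAW264.7 after introduction of mouse Cd137. The set holds 9 of the 21990 genes listed in the deposited expression table: Cx3cr1, Ccr1, Ccr2, Ccr3, Ccrl2, Cxcr4, Cmklr1, Ackr3 and Cxcr3. They were taken by gene symbol as chemokine receptors and the chemerin receptor of monocytes and macrophages, with the difference between CD137 and control cells in view: Cx3cr1 has the largest decrease among them. Their values in that comparison are therefore given as a description, without a test. A value is present for 8 of the 9, and Ccr3 is listed without a value in any library.

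The CD137 cells carried Renilla luciferase together with mouse Cd137, and the control cells carried Renilla luciferase alone, so the luciferase is shared by both groups. Cd137 (gene symbol Tnfrsf9) encodes a TNF receptor family member that co-stimulates T cells. The series has 3 CD137 samples and 2 control samples, and the table analysed here holds 3 libraries: CD137 replicates 2 and 3 and control replicate 2. Nothing in the labels says whether the cells were a single clone or a pool, which promoter drove Cd137, or whether the CD137 libraries came from separate cultures. Levels are in FPKM, fragments scaled to transcript length and library size, so that genes of different length can be compared. The libraries held about 17.68, 17.77 and 17.99 M fragments in CD137 replicate 2, CD137 replicate 3 and the control. Tnfrsf9, which checks the labels, was at 364 and 370 FPKM in the CD137 libraries and at 5.06 FPKM in the control; transcripts of the introduced and the endogenous gene are not separated.

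Chemoattractant receptors are G protein-coupled receptors of the cell membrane. A bound ligand activates heterotrimeric G proteins of the Gi class, whose beta-gamma subunits engage phosphoinositide 3-kinase gamma and phospholipase C beta and polarise the cell toward the source. Receptor kinases and beta-arrestins then switch the receptor off and take it into the cell. CX3CR1 binds fractalkine (CX3CL1), a chemokine tethered to the cell surface, and is a defining receptor of patrolling monocytes and microglia. CCR2 brings classical monocytes out of the bone marrow, CCR1 serves inflammatory CC chemokines, CXCR3 serves interferon-induced chemokines, CXCR4 binds CXCL12, CCR3 is the eotaxin receptor of eosinophils, and CMKLR1 binds the attractant chemerin. CCRL2 and ACKR3 bind ligand without conventional G protein signalling; CCRL2 presents chemerin to other cells and ACKR3 removes CXCL12.

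Cx3cr1 (gene ID 13051) lies on the minus strand of chromosome 9 from 120048683 to 120068296 in mm10, and Ccrl2 (gene ID 54199) on the minus strand of the same chromosome from 111054834 to 111057518. These 2 genes show the widest differences between CD137 and control cells among the members with at least 1 FPKM in some library, one lower and the other higher, and the 250 bases before their most upstream RefSeq start are shown for that reason (RefSeq, GRCm38.p6, the assembly also called mm10; minus strand, written 5′ to 3′). The reference is that of C57BL/6J mice, whereas RAW264.7 cells come from a BALB/c background. Capitals mark a match to the NF-kB consensus motif, which was searched on both strands. The first window is chr9:120068297-120068546 and the second chr9:111057519-111057768.
Cx3cr1: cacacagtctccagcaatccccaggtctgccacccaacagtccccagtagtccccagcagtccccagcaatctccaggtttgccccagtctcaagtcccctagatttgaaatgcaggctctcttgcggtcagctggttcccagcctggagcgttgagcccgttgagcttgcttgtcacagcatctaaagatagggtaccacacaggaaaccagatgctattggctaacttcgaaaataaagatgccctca
Ccrl2: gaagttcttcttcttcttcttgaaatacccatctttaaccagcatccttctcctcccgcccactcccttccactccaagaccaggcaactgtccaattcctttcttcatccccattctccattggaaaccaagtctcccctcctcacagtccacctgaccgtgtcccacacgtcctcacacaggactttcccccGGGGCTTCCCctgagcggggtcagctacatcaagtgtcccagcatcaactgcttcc
The Ccrl2 window holds 1 match to the NF-kB consensus, 56 to 47 bases before the start, and the Cx3cr1 window holds 0. Across 32851 RefSeq windows of the same length, 7.25% hold at least 1 such match. The 9 members have 11 windows, of which 3 hold one (before Ccr1, Ccr3 and Ccrl2). The AP-1 motif TGANTCA was found before Ccr3 only (6.75% of all windows), the PU.1 motif GAGGAAGT before Cxcr3 only (2.44%), and TATAAA before Ackr3 and Cxcr4 (12.4%). GC content was 53.6% for Cx3cr1 and 54.0% for Ccrl2, against a median of 52.4% over all windows. Matches to different motifs did not overlap in any of these windows. A match describes letters in these windows and nothing about binding.

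Cx3cr1 was the dominant receptor of the set in every library. It was at 20.6 and 21.4 FPKM in CD137 replicates 2 and 3, against 72.8 FPKM in the control. Both CD137 libraries lay far below the control, and they differed from each other by less than 1 FPKM. On average CD137 cells held 21.0 ± 0.55 FPKM (SD, n = 2), 0.288 of the control level and a difference of -1.75 on the log2(FPKM + 1) scale. Behind these levels stood 1306 and 1317 fragments in the CD137 libraries and about 4617 in the control, the last estimated from its FPKM. In the authors' deposited table the log2 ratios to the control are -1.82 and -1.77 for CD137 replicates 2 and 3. Because the control fragments were estimated from FPKM, the ratio of fragments, corrected for depth, repeats the FPKM ratio of 0.288. Its 95% exact binomial interval of 0.275 to 0.303 covers counting error only. Among 6711 genes with a mean of at least 10 FPKM this was the lowest log2 difference. Among all 10720 genes at 1 FPKM or more in some library it was the second lowest, after the predicted gene LOC108167725, whose CD137 libraries were far apart at 0 and 2.77 FPKM beside 7.16 FPKM in the control. By level, Cx3cr1 stood at place 4165 of those genes in CD137 cells and at place 1077 in the control.

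**Figure D1:**
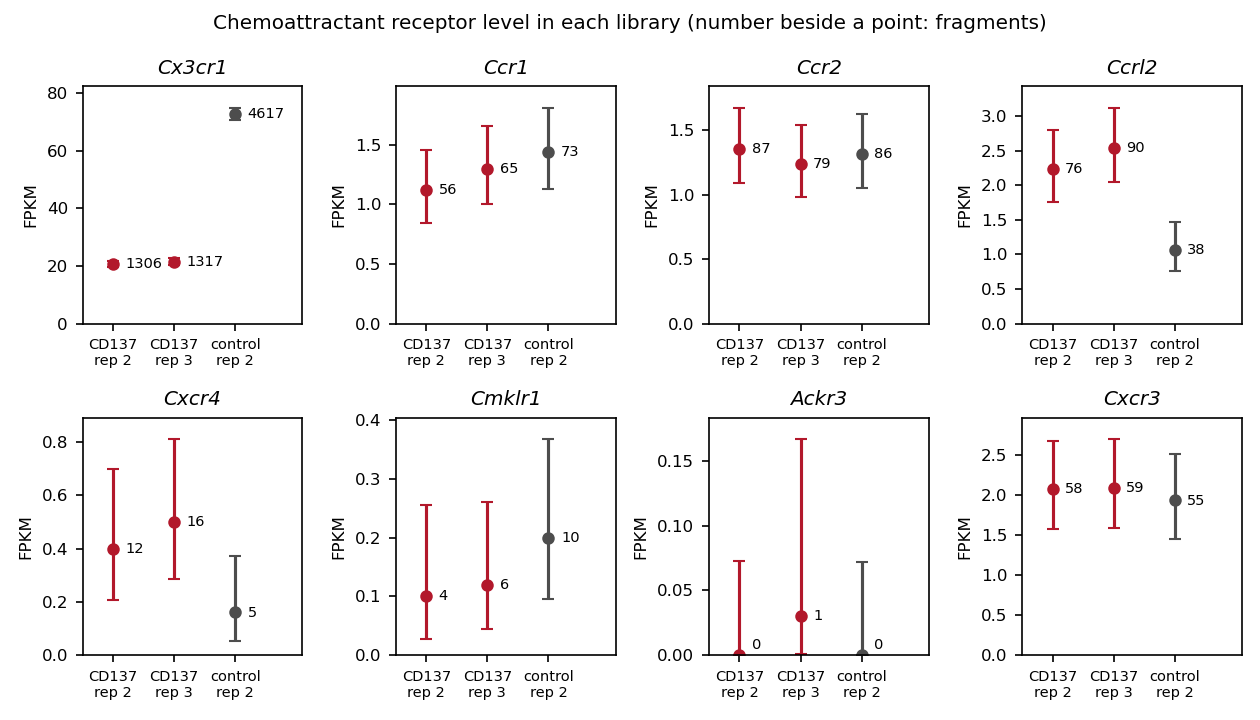
FPKM of the 8 receptors with a value in CD137 replicates 2 and 3 (red) and control replicate 2 (grey), each panel on its own axis from 0. Bars are 95% exact Poisson intervals of the fragments, whose number stands beside each point, and for 0 fragments they end at 3 fragments. They cover counting error in single libraries only and do not test the groups. Cx3cr1, Ccr1 and Cmklr1 are lower and Ccrl2, Cxcr3 and Cxcr4 higher in both CD137 libraries than in the control.

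Ccrl2, the chemerin-presenting receptor, was higher in CD137 cells. It was at 2.23 and 2.54 FPKM in the CD137 libraries and at 1.07 FPKM in the control, from 76, 90 and 38 fragments. Both CD137 values were above the control. The mean of 2.39 ± 0.22 FPKM (SD, n = 2) was 2.23-fold the control level, a log2(FPKM + 1) difference of 0.71. The ratio of fragments was 2.22 (95% exact binomial interval 1.55 to 3.24). With a pseudocount of 0.1 FPKM in place of 1, which understates changes of low genes less, the log2 difference was 1.08.

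The CC receptors Ccr1 and Ccr2 were present at low levels that differed little. Ccr1 (gene ID 12768), a receptor for CCL3, CCL5 and CCL9 in the mouse, was at 1.12 and 1.30 FPKM in CD137 cells and at 1.44 FPKM in the control, from 56, 65 and 73 fragments. Both CD137 values were below the control, and the fragment ratio was 0.841 (counting interval 0.624 to 1.14). Ccr2 (gene ID 12772), the receptor for CCL2, was at 1.36 and 1.24 FPKM in CD137 cells, on either side of the control at 1.32 FPKM. Its fragment ratio was 0.979 (counting interval 0.750 to 1.29). Ccr1 and Ccr2 have close relatives beside them on chromosome 9, Ccr1l1 among them, and the split of reads between such copies is uncertain.

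Cxcr3 (gene ID 12766), the receptor for the interferon-induced chemokines CXCL9 and CXCL10 and best known from T cells, was at 2.07 and 2.09 FPKM in CD137 cells and at 1.93 FPKM in the control. The values were close in all 3 libraries, and the fragment ratio of 1.08 had an interval of 0.777 to 1.52. Cxcr4 (gene ID 12767) was near the limit of detection, at 0.40 and 0.50 FPKM in CD137 cells and 0.16 FPKM in the control. These values rest on 12, 16 and 5 fragments. Both CD137 values were above the control, and the fragment ratio was 2.84 with an interval of 1.08 to 9.42, wide because of the 5 control fragments.

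The chemerin receptor Cmklr1 (gene ID 14747) was at 0.10 and 0.12 FPKM in CD137 cells and at 0.20 FPKM in the control, from 4, 6 and 10 fragments. Its fragment ratio was 0.507, with a counting interval of 0.190 to 1.36. Ackr3 (gene ID 12778) had 0 and 1 fragments in CD137 replicates 2 and 3 and 0 in the control, and a count of 0 allows up to 0.0731 FPKM in CD137 replicate 2 and 0.0719 FPKM in the control (3 fragments each); no fold is given. No difference in Cmklr1 or Ackr3 was detectable at this depth.

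The order of the receptors changed below the first place. In CD137 cells it was Cx3cr1, Ccrl2, Cxcr3, Ccr2, Ccr1, Cxcr4, Cmklr1 and Ackr3, and in the control it was Cx3cr1, Cxcr3, Ccr1, Ccr2, Ccrl2, Cmklr1, Cxcr4 and Ackr3. Ccrl2 was thus at place 2 in CD137 cells and at place 5 in the control. In CD137 cells neighbours from Ccrl2 to Ccr1 had overlapping counting intervals, as had neighbours from Cxcr4 to Ackr3. In the control those from Cxcr3 to Ccrl2 overlapped, as did those from Cmklr1 to Ackr3. Summed over the 8 members, FPKM was 27.9 and 29.2 in the CD137 libraries, against 78.9 in the control. Cx3cr1 made up 73.9% and 73.2% of that sum in the CD137 libraries and 92.2% in the control, and the other 7 receptors together held 7.28 and 7.82 FPKM against 6.12 FPKM.

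No difference between the CD137 libraries was called for these genes, a comparison that played no part in choosing them. In the authors' deposited table, which compares pairs of libraries with a Poisson test, the p-values of the 8 members between CD137 replicates 3 and 2 ran from 0.294 for Ccrl2 to 0.949 for Cxcr3. Of the 8, 0 had an adjusted p under 0.05 there, beside 1.43% of 15646 genes tested in that pair. At so low a share this count says nothing particular about the members. Apart from Cx3cr1 they had 90 fragments or fewer in each CD137 library, which leaves the test little power.

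Differences between the groups were read for all genes with limma, fitted to log2(FPKM + 1) of the 10720 expressed genes, meaning those that reach 1 FPKM in some library. In that fit 42.6% of genes passed a Benjamini-Hochberg adjusted p of 0.05, 24.4% higher and 18.2% lower in CD137 cells. Of the 9 members 5 entered it (Cx3cr1, Ccr1, Ccr2, Ccrl2 and Cxcr3), 3 lay below 1 FPKM in all libraries and 1 had no value. Since these genes were chosen on the same contrast, their calls are not given. The single control leaves 1 residual degree of freedom, taken from the CD137 libraries, so that the control is assumed to vary as they do. Without the filter on low values, in a limma fit of all 16003 genes with a value, 0 genes passed (5281 at an unadjusted p under 0.05). With the filter, limma-voom on recovered fragments called 4729 of 9985 genes. Below, "rose" and "fell" stand for genes called in the fit of expressed genes.

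**Figure D2:**
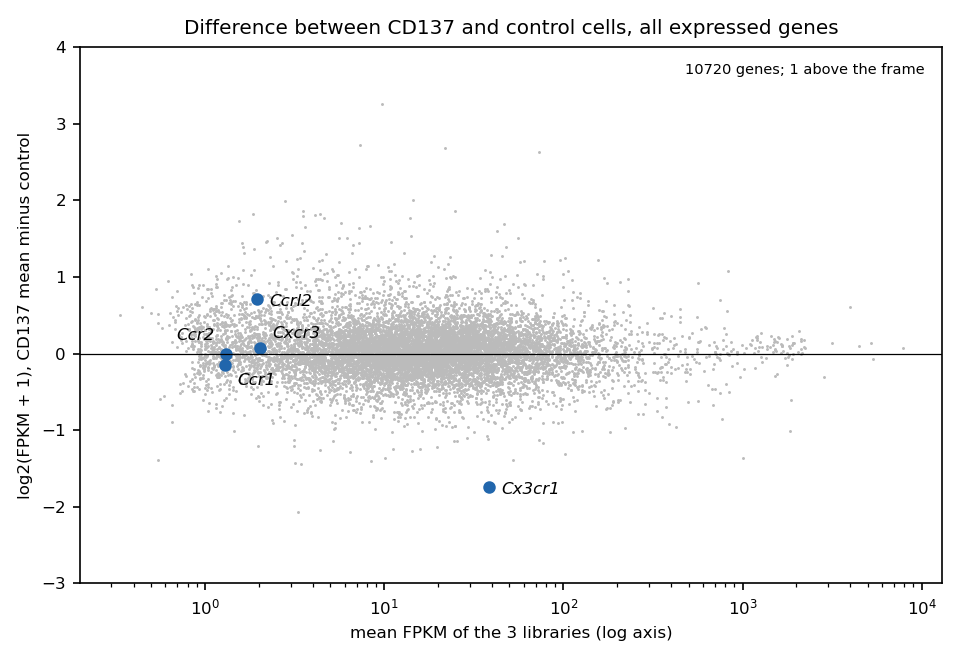
Log2(FPKM + 1) in CD137 cells (mean of 2 libraries) minus control against mean FPKM (log axis) for 10720 expressed genes (grey), with the 5 receptors among them in blue. Cx3cr1 lies at -1.75, below all other genes with a mean of 10 FPKM or more; Ccrl2 lies at 0.71 and Ccr1, Ccr2 and Cxcr3 lie between -0.14 and 0.07.

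Other chemokine receptors were scarce. The table lists 16 further chemokine receptors, of which 1 (Ackr1) has no value and 13 stayed below 1 FPKM, Ccr7 among them. The remaining 2 were not called: Cxcr2, a neutrophil chemokine receptor, was at 2.23 and 1.97 FPKM in CD137 cells and 1.86 FPKM in the control (limma adjusted p = 0.465), and Ccr10 was at 0.93 and 1.35 FPKM against 1.70 FPKM (adjusted p = 0.155). With these and the members together, Cx3cr1 supplied 63.4% and 62.9% of all chemokine receptor FPKM in the CD137 libraries and 86.6% in the control. No other receptor of the 25 exceeded 2.54 FPKM in any library.

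Receptors for other attractants moved in both directions. Of 28 such genes in the table, 12 were expressed, and 2 rose, 6 fell and 4 were not called. The median log2 difference was -0.16 against 0.03 over all expressed genes, of which 24.4% rose and 18.2% fell. The M-CSF receptor Csf1r, through which macrophages also migrate, fell to 342 ± 3.35 FPKM in CD137 cells (SD, n = 2), against 444 FPKM in the control (adjusted p = 0.00193). Gpr183, the receptor for oxysterol attractants, fell to 16.8 and 17.8 FPKM, against 29.3 FPKM (log2 difference -0.73 ± 0.06 SE, adjusted p = 0.0017). The UDP receptor P2ry6 fell to 10.1 and 8.56 FPKM, against 16.6 FPKM (adjusted p = 0.00549). S1pr1, a receptor for sphingosine 1-phosphate, rose to 15.9 and 15.8 FPKM, against 12.7 FPKM (adjusted p = 0.0133). Its relative S1pr2 was at 16.6 and 17.1 FPKM in CD137 cells and 16.1 FPKM in the control and was not called. Plxna1, a semaphorin receptor, was at 18.5 and 18.7 FPKM against 17.5 FPKM and was not called either. Formyl peptide receptors Fpr1 and Fpr2 were listed without a value.

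The expressed ligands of the members were mostly higher in CD137 cells. Of 16 ligand genes in the table, 6 were expressed, of which 5 rose and 1 fell (median log2 difference 0.86). Over all expressed genes 24.4% rose and 18.2% fell. Ccl3, a ligand of CCR1, rose to 202 and 203 FPKM in CD137 cells, against 102 FPKM in the control (adjusted p = 0.000552). Ccl9, another CCR1 ligand of the mouse, rose to 90.5 and 91.1 FPKM, against 71.0 FPKM (adjusted p = 0.00316), and Ccl4 to 39.3 and 41.9 FPKM, against 23.1 FPKM (adjusted p = 0.00146). Ccl5, a further ligand of CCR1, was at 3.92 and 4.11 FPKM in CD137 cells and 1.62 FPKM in the control, and Cxcl10, a ligand of CXCR3, at 1.65 and 1.75 FPKM against 0.30 FPKM; both were called. Mif, which can act through CXCR4, fell to 1145 and 1108 FPKM, against 1282 FPKM (adjusted p = 0.0121). Cx3cl1, the ligand of CX3CR1, stayed at 0.13 and 0.16 FPKM in CD137 cells and 0.04 FPKM in the control. Cxcl12, the ligand of CXCR4 and ACKR3, was at 0.04 and 0.05 FPKM in CD137 cells and 0.04 FPKM in the control, and Ccl2, the ligand of CCR2, at 0.36 and 0.43 FPKM against 0.21 FPKM. Rarres2, which encodes chemerin, was at 0.47 FPKM in CD137 replicate 2 and listed at 0 in CD137 replicate 3 and in the control. None of these last 4 ligands reached 1 FPKM in any library.

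**Figure D3:**
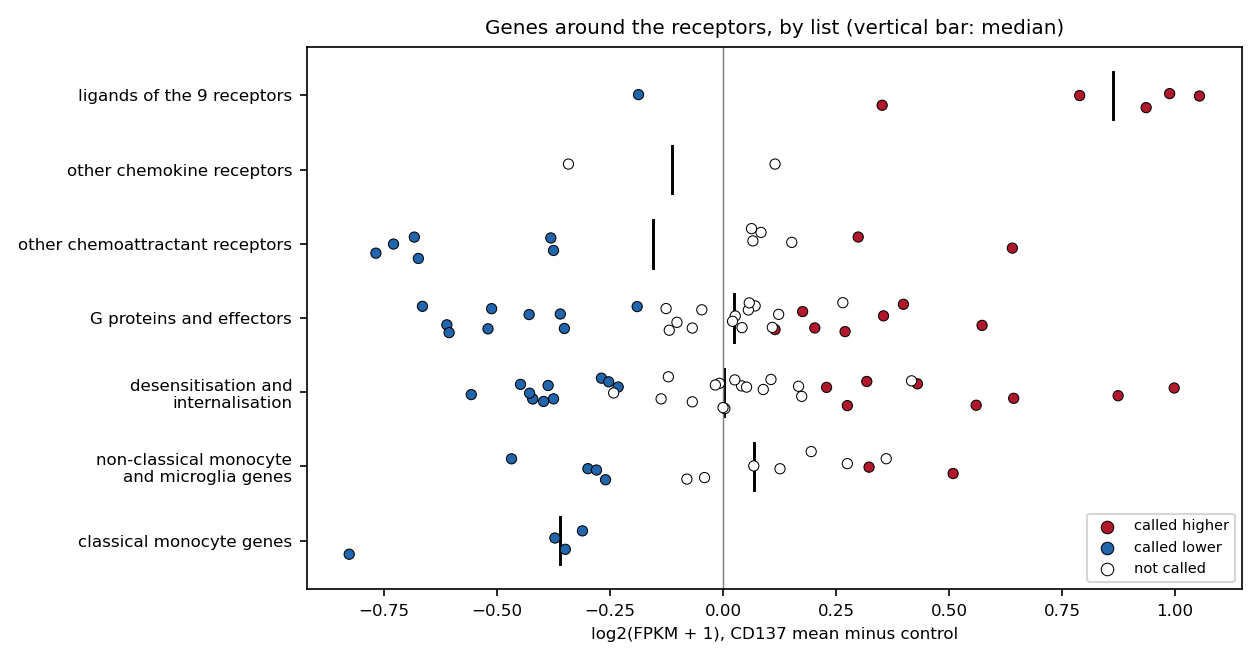
Log2(FPKM + 1) in CD137 cells minus control for the expressed genes of 7 lists, each point a gene, filled red where called higher, blue where called lower and white where not called by limma; vertical bars are list medians. Ligands lie mostly to the right, classical monocyte genes to the left, and transducers and desensitisation genes on both sides of 0.

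The G proteins and effectors downstream of these receptors were split. Of 36 genes 30 were expressed, with 7 rising, 9 falling and 14 not called (median 0.02). These counts stand beside 24.4% rising and 18.2% falling over all expressed genes. Gnai2, the main Gi alpha subunit of leukocytes, fell to 170 and 173 FPKM in CD137 cells, against 263 FPKM in the control (log2 difference -0.61 ± 0.04 SE, adjusted p = 0.00104). The gamma subunit Gng5 rose to 181 and 175 FPKM, against 119 FPKM (adjusted p = 0.00127). The small GTPases Rhoa and Cdc42 rose to 1.13 and 1.08 times the control level; Cdc42 was no longer called after the libraries were rescaled to a median log2 ratio of 0. The beta subunit Gnb2 was at 176 and 172 FPKM in CD137 cells and 165 FPKM in the control, and the GTPase Rac2 at 131 and 138 FPKM against 132 FPKM; neither was called.

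Genes of receptor desensitisation and uptake were split as well. Among 36 listed genes, 34 were expressed, with 8 rising, 10 falling and 16 not called (median 0.00 on the log2 scale). The shares over all expressed genes were 24.4% rising and 18.2% falling. Dnm2, the dynamin that pinches off endocytic vesicles, rose to 78.1 and 80.8 FPKM in CD137 cells, against 50.5 FPKM in the control (adjusted p = 0.00127). The clathrin heavy chain Cltc rose to 1.17 times the control level, whereas the light chain Clta fell to 132 and 125 FPKM, against 172 FPKM (adjusted p = 0.00291). The early endosome GTPase Rab5c fell to 0.769 of the control level. The late endosome GTPase Rab7 was at 154 and 152 FPKM in CD137 cells and 149 FPKM in the control, and the adaptor subunit Ap2m1 at 113 and 116 FPKM against 114 FPKM; neither was called.

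Genes known from Cx3cr1-high monocytes and from microglia went in both directions. Of 25 listed, 13 were expressed, and 2 rose, 4 fell and 7 were not called (median 0.07), beside 24.4% rising and 18.2% falling over all expressed genes. Trem2, a lipid-sensing receptor, fell to 157 and 162 FPKM, against 191 FPKM in the control, and Tgfbr2, a receptor of TGF-beta, fell to 25.7 and 26.2 FPKM, against 36.3 FPKM. The tetraspanin Cd9 fell to 0.812 of the control level. Cebpb, a transcription factor needed for patrolling monocytes, was at 29.5 and 29.2 FPKM in CD137 cells and 30.3 FPKM in the control, and the selectin ligand Selplg at 16.2 and 16.4 FPKM against 17.3 FPKM; neither was called. Of 13 classical monocyte genes 4 were expressed and 4 fell, beside 18.2% falling over all expressed genes. The calcium-binding protein gene S100a4 was at 282 FPKM in each CD137 library and 501 FPKM in the control, and Cd14, the lipopolysaccharide co-receptor, at 170 and 171 FPKM against 217 FPKM. The transcription factors Irf8 and Klf4 fell to 0.799 and 0.745 of the control level. Ly6c2, the defining surface marker of classical monocytes, was at 0.10 FPKM in CD137 replicate 2 and listed at 0 in the other 2 libraries.

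Macrophage markers were present throughout, with 9 of 10 expressed, 4 higher, 4 lower and 1 not called. Over all expressed genes 24.4% were higher and 18.2% lower. Fcgr1, a high-affinity Fc receptor gene, rose 2.05-fold, Itgam and Ptprc, which encode CD11b and CD45, rose 1.38-fold and 1.32-fold, and the macrophage surface receptor gene Adgre1 rose 1.33-fold. Lyz2 and Cd68 fell to 0.389 and 0.869 of the control level, as did Csf1r and Cd14, described above, to 0.771 and 0.784. Their summed level was 1964 and 2012 FPKM in the CD137 libraries and 3122 FPKM in the control, a gap made mostly by Lyz2, at 646 and 669 FPKM against 1693 FPKM. Spi1, which encodes the macrophage factor PU.1, was at 103 and 107 FPKM in CD137 cells and 97.3 FPKM in the control and was not called. Markers of T and NK cells summed to 5.21 and 4.81 FPKM in CD137 cells and 3.61 FPKM in the control, nearly all of it Lck, while Cd3e and Cd3g had no value. Markers of B cells (5 genes), dendritic cells (5), granulocytes (8) and endothelial or stromal cells (7) summed to 2.52 FPKM or less in every library. Ms4a1, Epx and Cd209a were listed without a value. The dendritic cell marker Zbtb46 rose to 1.36 and 1.45 FPKM in CD137 cells, against 0.64 FPKM in the control. The B cell marker Cd79b and the endothelial marker Pecam1 were expressed and not called. In bulk RNA, fewer cells expressing a receptor and less of its RNA per cell cannot be told apart.

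By position, 5 of the 9 members lie on chromosome 9, which holds 5.48% of the listed genes. Ccr1, Ccr3 and Ccr2 sit in a run of 8 chemokine receptor genes within 360 kb. All 7 genes with a value in this run were at 1.36 FPKM or less in CD137 cells and 1.44 FPKM or less in the control, and only Ccr1 and Ccr2 reached 1 FPKM. Cx3cr1 lies outside the run. Of 43 other genes within 200 kb of a member 22 were expressed, and 6 rose, 6 fell and 10 were not called, beside 42.6% called over all genes. Around Cx3cr1, 1 of 5 expressed neighbours rose, 1 fell and 3 were not called. Csrnp1 fell to 21.4 and 22.8 FPKM in CD137 cells, against 25.97 FPKM in the control (adjusted p = 0.0374), and the ribosomal protein gene Rpsa rose 1.09-fold, a call lost when the libraries were rescaled. Slc25a38 at 1.01, Wdr48 at 0.977 and Gorasp1 at 0.873 of the control level were not called. Ccr8, the chemokine receptor gene nearest to Cx3cr1, was at 0.05 FPKM in each library. Around Ccrl2, 3 of 5 expressed neighbours rose and 2 were not called. Prss50, a serine protease gene, rose to 6.68 and 6.21 FPKM in CD137 cells, against 2.46 FPKM in the control (log2 difference 1.11 ± 0.09 SE, adjusted p = 0.00165). Als2cl rose to 8.27 and 8.72 FPKM, against 5.77 FPKM (adjusted p = 0.00711). Lrrfip2 rose to 33.9 and 31.8 FPKM, against 22.8 FPKM (adjusted p = 0.00377). Rtp3, at 0.935 of the control level, was among those not called.

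Around the other receptors, Dars near Cxcr4 fell to 85.8 and 86.4 FPKM in CD137 cells, against 105 FPKM in the control (adjusted p = 0.00519). Near Cmklr1, Sart3 fell to 0.672 and Coro1c, an actin-binding protein gene, to 0.763 of the control level, Ficd rose 1.86-fold, and Iscu and Selplg were not called. Near Cxcr3, Nhsl2 fell to 0.79 and 0.75 FPKM, against 1.90 FPKM (adjusted p = 0.012), Taf1 fell to 0.777 of the control level, and Ogt was not called. Near Ccr2, beyond the chromosome 9 run, 2010315B03Rik rose 1.28-fold and Gm39469 was not called. Fyco1, near Ccr1 and Ccr3, was not called either.

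**Figure D4:**
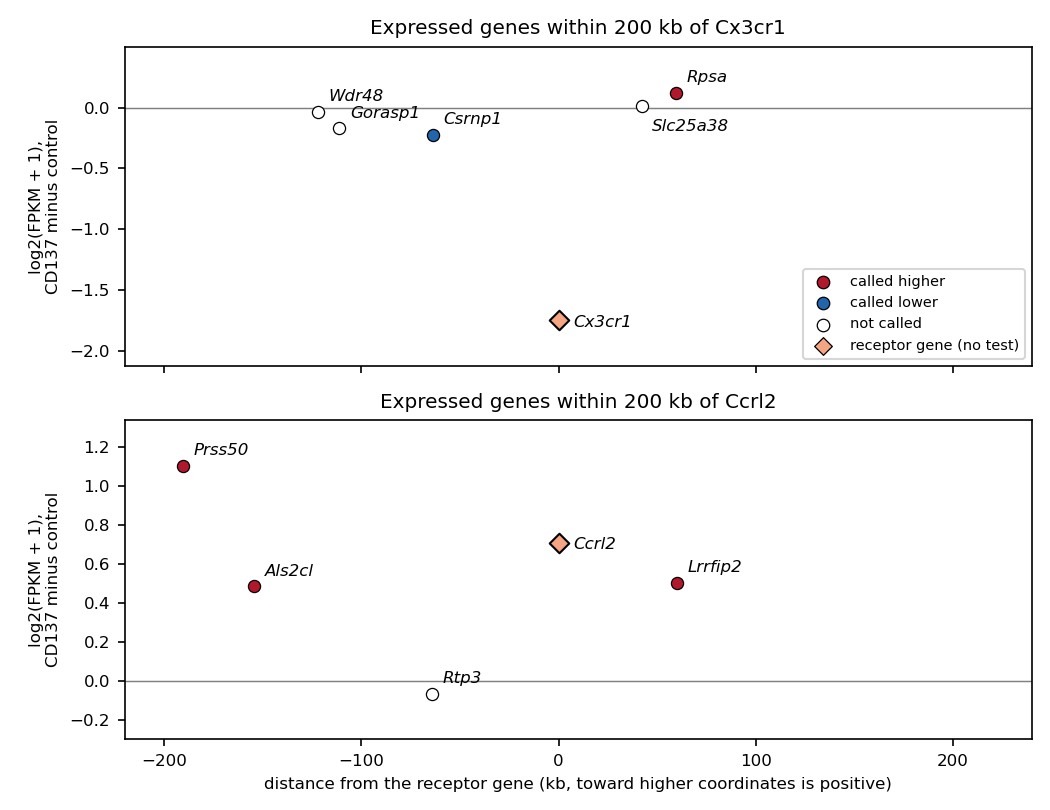
Log2(FPKM + 1) in CD137 cells minus control for expressed genes within 200 kb of Cx3cr1 (top; 5 genes) and Ccrl2 (bottom; 4 of 5 genes drawn), by distance from the receptor gene in kb; red and blue mark genes called higher and lower by limma, white those not called, and the diamond is the receptor. Neighbours of Cx3cr1 lie between -0.22 and 0.12, while the 3 called neighbours of Ccrl2 lie between 0.49 and 1.11.

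The genes whose pattern over the 3 libraries was nearest to that of Cx3cr1 were sought among 6710 genes with a mean of at least 10 FPKM, by Euclidean distance between log2(FPKM + 1) values centred on each gene's mean. Among the 5 nearest were Mcm6, a subunit of the replicative helicase (distance 0.297), the lysozyme genes Lyz2 (0.314) and Lyz1 (0.369) and the DNA repair gene Rad54l (0.405). Their log2 differences ran from -1.25 for Rad54l to -1.38 for Mcm6, all smaller in size than that of Cx3cr1, and the likeness rests on 3 libraries. Lyz1 and Lyz2 are near-identical copies whose reads can be assigned to either.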

How the data were processed

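Libraries were made with oligo-dT beads, per the labels' protocols, and grouped by sample title. Per the file headers, the authors' table gives FPKM, to 2 decimals. HISAT2, Bowtie2, RSEM and mm10 appear in the submitters' processing notes; roles, versions and strandedness were not stated there. The table lists 21990 genes, 5987 without a value; 1 broken line was left out. Its log2 ratios, p-values and adjusted p-values compare pairs of libraries by a Poisson test, per the file headers. The deposited adjusted p-values exceed 1 for some genes and were therefore kept as a score. Replicate 1 of each group was not analysed here.

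Fragments (or reads; the table does not say which) were solved from the authors' p-values with SciPy 1.17.1, taking each p as 2 times the smaller tail of a conditional Poisson distribution. This gave a unique answer for 94.9 percent of 16003 genes. Where the p against the control is 0, as for Cx3cr1, control fragments were estimated from FPKM. In a test with known fragments, 98.7 percent of 600 genes were solved, 100.0 percent of these rightly. That test used the same formula and depth ratios, with FPKM proportional to fragments. It cannot show whether these hold for the authors' values. Intervals and limits cover counting error only, and isoform shifts can move FPKM and fragments apart.

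limma 3.58.1 in R 4.3.3, with a mean-variance trend, was fitted to log2(FPKM + 1) of 10720 genes that reach 1 FPKM in some library, a scale that understates changes of low genes. Data were simulated with a spread of 1.92 percent in every library, the control included (9922 genes). Only a small share of genes was changed, drawn from those with many fragments. There limma found 14 percent of genes changed 1.2-fold, 88 percent at 1.5-fold, 98 percent at 2-fold and 100 percent at 4-fold. It called 2 unchanged genes. The spread of the real control is unknown, and far more genes were called in the real fit. These rates therefore do not carry over to it. The CD137 libraries may stem from 1 culture, in which case p-values measure technical spread alone. Alternatives were other pseudocounts and filters, rescaled libraries, limma-voom on fragments and leaving out a CD137 library. Members, lists, motifs and tests were chosen with earlier results of these data known. Named genes are up to 4 called and 2 uncalled per list, by mean FPKM, expressed genes within 200 kb of a member, and the 5 most like Cx3cr1. Ccl5, Cxcl10, Fcgr1, Itgam, Ptprc, Adgre1, genes below 1 FPKM and LOC108167725 were chosen after their values were seen. A few genes that the rule would name are not reported here. RefSeq promoters matched 9 of 9 members.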

Additional observations from a re-analysis of the deposited data

How the results depend on the processing

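With no filter on low values the fit of all genes called 0 genes, and hence 0 in every list. Apart from this, counts of called genes and of called list members stayed within 1.5 times under other pseudocounts, the mean filter, rescaling and limma-voom, except that limma-voom called 1 non-classical monocyte and microglia gene higher in place of 2; the cause was not tested. The Cx3cr1 log2 difference was -1.79 with pseudocounts of 0.1 and 0.01 FPKM, and -1.72 to -1.77 when either CD137 library was left out. With limma-voom it was also -1.79, which is no separate check because the control fragments of Cx3cr1 were estimated from FPKM. Of the genes named from lists or as neighbours, 2 lost their call after rescaling, 40 with no filter and 0 under other pseudocounts, and no called gene changed sign. The uncalled Rac2, Ap2m1 and Slc25a38 changed sign, to -0.006, -0.029 and -0.016, after rescaling, and Ccr2 did without CD137 replicate 3 (0.025); Ogt was called with limma-voom. Pseudocounts set the size of low members: the log2 difference of Cxcr4 was 0.32, 1.08 and 1.43 with 1, 0.1 and 0.01 FPKM. No paired analysis was possible because the groups share a single replicate number in the table. With 1 control library, leaving it out gives no value. Depth limits Cxcr4, Cmklr1 and Ackr3, which had 16 fragments or fewer in each library.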
